A study of Mus musculus with 2 samples.

Results

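The barcodes described here are droplets of 2 single-cell RNA libraries. They held no transcript counted under the γ and δ T cell receptor V symbols given below, and none of Rag1. Rag1 is the recombinase gene that thymocytes use to assemble receptor genes. V segments named as shared by α and δ chains were not part of the rule. The barcodes were selected on the counts themselves. A barcode was taken when it had at least 500 genes with a unique molecular identifier (UMI, the count of 1 captured RNA molecule), 0 UMIs of every symbol starting Tcrg-V, Trgv or Trdv, and 0 Rag1 UMIs. The rule took 144 of the 1158 barcodes with at least 500 genes, out of 1398 deposited. They were 130 of 1025 barcodes in the TMREhi library (12.7%, exact 95% interval 10.7–14.9) and 14 of 133 in the TMRElo library (10.5%, 5.88–17.0).

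The study sorted immature, CD24+ γδ T cells from fetal thymic lobes of untreated wild-type C57BL/6 mice, taken at embryonic day 15 and held for 2 days in culture. The sort used TMRE, a dye drawn into mitochondria by their membrane potential, and gave a bright fraction (TMREhi) and a dim one (TMRElo). Each fraction was 1 library made with the 10x Chromium 5′ kit, and how many embryos were pooled is not given in the sources used here. As each group is 1 library, no test was run and no p-value can be printed. Every interval below is a 95% interval for counting error alone, and leaves out variation between barcodes, embryos and sorts.

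Thymocytes assemble receptors from V, D and J segments joined to a constant region. γδ T cells carry a γ and a δ chain, and αβ thymocytes first pair a β chain with the pre-T α chain, encoded by Ptcra, then divide and switch on the coreceptors CD4 and CD8 before they assemble an α chain. Cells sorted as γδ T cells therefore should hold γ and δ constant region transcripts, while Ptcra, Cd4, Cd8a and Cd8b1 mark the αβ path. Rag2, the partner of Rag1, is used for the receptors of both lineages. Macrophages of the thymus, which engulf dying thymocytes, are known for lysozyme (Lyz2) and the complement C1q chains.

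The V symbols used for the choice were 7 of the γ locus on chromosome 13, such as Tcrg-V1 at chr13:19339989-19340454 of GRCm38, and 6 of the δ locus on chromosome 14. Tcrg-V1, Tcrg-V3 and Trgv2 are close copies, and are shown since a molecule read only where they are alike has no single V symbol to be counted under. Over 347 aligned bases Tcrg-V1 and Tcrg-V3 were 95.7% identical, and their longest shared run was 104 bases. Trgv2 was 95.2% identical to Tcrg-V1 and 94.6% to Tcrg-V3. The 90-base window that holds most differing letters is printed below 5′ to 3′ in the direction of the transcript, from the GENCODE vM21 transcripts of the same build, with the 10 positions at which the segments differ in capitals.
Tcrg-V1: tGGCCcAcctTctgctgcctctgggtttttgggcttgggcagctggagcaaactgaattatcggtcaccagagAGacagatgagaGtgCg
Tcrg-V3: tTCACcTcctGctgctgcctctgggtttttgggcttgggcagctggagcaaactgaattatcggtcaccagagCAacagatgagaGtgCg
Trgv2: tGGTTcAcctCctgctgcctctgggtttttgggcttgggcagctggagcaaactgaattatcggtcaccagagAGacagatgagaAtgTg
The middle of the window is alike in all 3 segments. How the authors' counting treated molecules that match several segments is not given in the sources used here. A further 10 symbols named as shared α and δ segments (Trav with a dv suffix) were not part of the rule, and 27 of the 130 TMREhi barcodes had a UMI of one of them, against 15 of their 130 comparison barcodes.

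Barcodes without V or Rag1 UMIs were shallow. In TMREhi they had a median of 1307 UMIs (683 to 9291), against 2556.5 in the 698 barcodes with a γ V UMI, and in TMRElo a median of 1006 (815 to 4770). Their share of the TMREhi library was 23.9% (17.5–31.3) between 500 and 1000 UMIs, 16.4% (12.6–20.7) up to 2000, 10.6% (7.19–15.0) up to 4000, 4.81% (1.58–10.9) up to 8000 and 1.32% (0.161–4.70) above. The share without V or Rag1 UMIs thus moved with depth, as did the share of barcodes with a Rag1 UMI and no V UMI, from 43.4% in the shallowest bin to 1.32% in the deepest. Among barcodes that did have a γ V UMI, only 60.3% (56.6–64.0) in TMREhi and 31.1% (22.5–40.9) in TMRElo also had a δ V UMI, although a γδ T cell carries both chains. The δ V symbols counted here were the 6 Trdv symbols. A δ chain that used one of the 10 shared α and δ segments was not counted, so these shares are not those of missed δ chains alone.

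**Figure D1:**
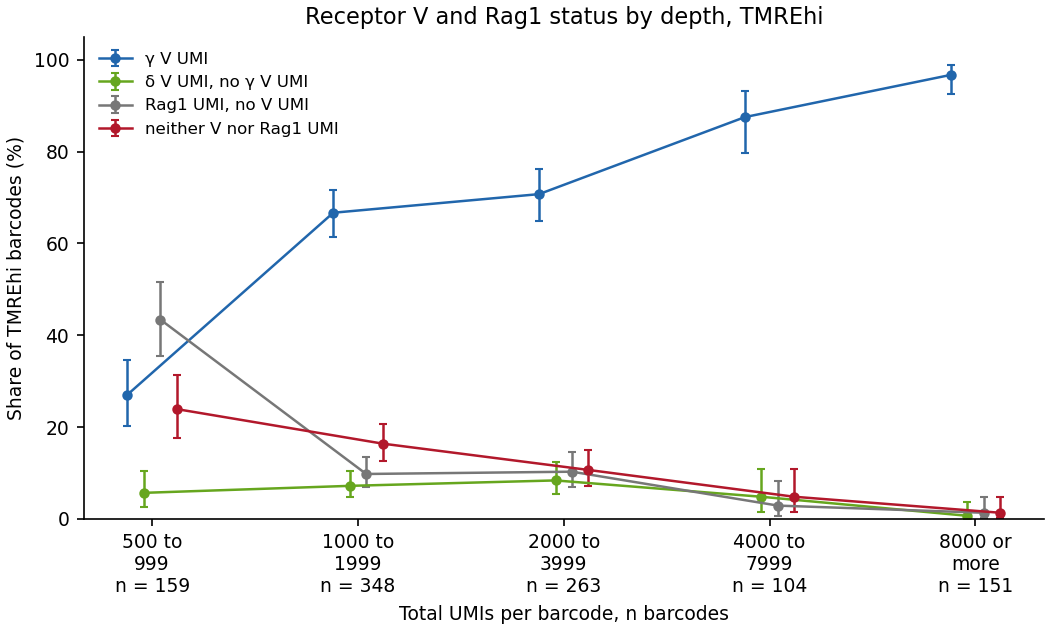
Share of TMREhi barcodes (y axis, %) in each of 4 classes by total UMIs per barcode (x axis, bins), with exact 95% binomial intervals. Barcodes with neither V nor Rag1 UMIs go from 23.9% in the shallowest bin to 1.32% in the deepest, while barcodes with a γ V UMI go from 27.0% to 96.7%.

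Because of this, each barcode was compared with the barcode of the same library that had a γ V UMI and the nearest total UMI count. The 130 TMREhi comparison barcodes had a median of 1309 UMIs and of 3 γ V UMIs, and 36 of them had exactly 1. Both sets were alike in quality, with a median of 15.5% mitochondrial UMIs against 16.8%, 18 barcodes each at or below 10%, and 121 against 116 barcodes with under 15% of UMIs from ribosomal protein genes. No barcode was shared by the 2 libraries, and no member of the set was called a doublet. Values below are UMIs summed over a set and scaled to counts per 1000000 (CPM). In TMREhi, 295 of the 4084 genes that averaged 50 CPM or more over both sets were at least 2-fold higher in the barcodes without V or Rag1 UMIs, which is 7.22%, and 249 were at least 2-fold lower, 6.1%.

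Constant regions of the γδ receptor were scarce in TMREhi. They lie on the same transcripts as the V segments that the rule used, so these values describe the set and support nothing. The 5 constant genes summed to 95 UMIs in the 130 barcodes and 502 in the comparison barcodes, a ratio of 0.191 (0.151–0.238). Trdc, the δ constant region at chr14:54142851-54148868, had 44 UMIs in 28 barcodes against 167 in 84 (185 against 698 CPM). Tcrg-C1 had 27 UMIs in 18 barcodes against 198 in 76, Tcrg-C2 had 12 against 88, and Tcrg-C4 had 12 against 47. All 4 of the constant genes averaging 50 CPM or more were over 2-fold lower, beside 6.1% of all genes compared. A barcode had a median of 0 constant UMIs and a highest value of 9, against a median of 3 and a highest value of 24 in the comparison set. After thinning each barcode to 1000 UMIs, Trdc was seen in 19.6% of 92 barcodes (12.03–29.1) and in 40.7% of 91 comparison barcodes (30.5–51.5). Barcodes with Rag1 and no V UMI, used as a set expected to hold little of it, showed it in 9.09% of 66 (3.41–18.7). That set was also chosen for 0 V UMIs, and 26 of its 135 barcodes had a γδ constant UMI before thinning. It is therefore no clean background, and part of the 19.6% is at the level that such barcodes reach. Without thinning the 3 shares were 21.5%, 64.6% and 11.9%, at median depths of 1307, 1309 and 984 UMIs.

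Genes of the γδ T cell programme were lower as well. The 13 genes of the list summed to 305 UMIs against 866, a ratio of 0.355 (0.310–0.405). Of its 11 genes with at least 50 CPM, 8 were over 2-fold lower and 0 over 2-fold higher, beside 6.1% and 7.22% of all genes compared. Cd163l1, a scavenger receptor gene of IL-17-producing γδ T cells, had 77 UMIs in 15 barcodes against 277 in 52. Maf, a transcription factor of the same cells, had 15 against 78, and Sox13, another γδ lineage factor, had 4 against 25. Of the 15 Maf UMIs, 11 lay outside the 2 barcodes rich in macrophage genes that are described further on. Blk, a Src family kinase of γδ thymocytes, had 9 against 33. Gzma, which encodes granzyme A, had 74 against 197, and the chemokine gene Xcl1 had 4 against 55. Id3, an inhibitor of E proteins that receptor signals induce, and Cd27, a costimulatory receptor, stood at similar levels, with 38 against 44 and 54 against 50 UMIs. Of the 10 genes with the lowest ratios, outside the constant regions, Kit (7 against 61 UMIs), the integrin genes Itgb3 (6 against 52) and Itgae (13 against 69), the chemokine receptors Cxcr6 (12 against 87) and Ccr2 (11 against 68), and Cd160 (12 against 68) were each over 5-fold lower.

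Genes of the αβ path were higher. The pre-T and αβ list of 11 genes summed to 938 UMIs against 525, a ratio of 1.80 (1.62–2.01). Of its 10 genes with at least 50 CPM, 6 were over 2-fold higher and 0 over 2-fold lower, beside 7.22% and 6.1% of all genes compared. Cd4 had 31 UMIs in 25 barcodes against 3 in 3. Cd8a had 48 UMIs in 30 barcodes against 12 in 9, and Cd8b1 had 41 in 24 against 7 in 6. Trac, the α constant region at chr14:54220521-54224206, had 36 UMIs in 22 barcodes against 9 in 8, which put its ratio at 4.03 (1.90–9.51). Dntt, the polymerase that adds bases at receptor joints, had 52 against 22, and Arpp21, a thymocyte gene of the αβ path, had 191 against 76. Themis, a signalling protein of αβ thymocyte selection, had 154 against 83, a ratio of 1.87 (1.42–2.47). Trav segments were seen in 46 of 130 barcodes against 22, and Trbv segments in 54 against 44. The Trav counts include the segments named as shared by α and δ chains, seen in 27 barcodes against 15, so they are not particular to the αβ path. In the 135 barcodes with Rag1 and no V UMI, which were not depth-matched, the pre-T and αβ list stood at 7888 CPM. It stood at 3951 CPM in the barcodes without either, so a high level was not particular to them.

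Ptcra itself did not stand out beyond counting error. It had 17 UMIs in 12 barcodes against 10 in 5 (71.6 against 41.8 CPM), a ratio of 1.71 (0.741–4.19). Thinned to 1000 UMIs it was seen in 8.70% of barcodes (3.83–16.4), in 3.30% of comparison barcodes (0.685–9.33) and in 0.826% (0.0209–4.52) of 121 barcodes with γ V and S1pr1 UMIs, used as a set that should lack it. Unthinned, the 3 shares were 9.23%, 3.85% and 2.38%, the last at a median depth of 2635.5 UMIs. Ptcra was highest in the barcodes with Rag1 and no V UMI, at 223 CPM. Of the β constant regions, Trbc1 did not differ beyond counting error and Trbc2 was higher. Trbc1 had 171 UMIs against 160, a ratio of 1.08 (0.863–1.34), and was seen in 41.3% of thinned barcodes (31.1–52.1), 42.9% of comparison barcodes and 42.1% of the S1pr1 barcodes, while Trbc2 had 190 against 142, a ratio of 1.35 (1.08–1.69). Trbc1 and Trbc2 are close copies, so counts may be split unevenly between them.

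The CD3 chains, which carry any T cell receptor to the surface, were lower, while the kinase gene Lck was higher. Cd3g had 98 UMIs against 240, Cd3e 85 against 188, Cd3d 113 against 166 and Cd247 52 against 101. Lck had 135 against 92, a ratio of 1.48 (1.13–1.95), the kinase gene Zap70 26 against 28 and the adaptor gene Lat 115 against 127. Cd5, an inhibitory receptor whose level is known to track the strength of receptor signals, was on the other side, with 56 UMIs in 26 barcodes against 15 in 12, a ratio of 3.76 (2.10–7.16). Cd2, an adhesion receptor, had 40 against 17. Only 7 Cd5 UMIs were counted in the 135 barcodes with Rag1 and no V UMI (31.9 CPM, against 236 in the barcodes without either).

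Among transcription factors of the T lineage, Satb1, a chromatin organiser of thymocytes, had one of the 10 highest ratios of all genes named. It had 488 UMIs in 102 barcodes against 108 in 52, a ratio of 4.55 (3.69–5.66). Bcl11b had 228 against 147, Tcf7 190 against 114 and Lef1 201 against 150, ratios of 1.56, 1.68 and 1.35. Of the 13 factors 11 were higher and 2 lower by any amount. Past 2-fold, 1 was higher (Satb1) and 1 lower, beside 7.22% and 6.1% of all genes compared. Runx3, a factor of CD8 and innate-like lymphocytes, had 35 against 98, a ratio of 0.360 (0.237–0.534), and Gata3, a factor of T lineage commitment, 27 against 39, a ratio of 0.697 (0.411–1.17). Notch1, the receptor that commits progenitors to the T lineage, had 81 against 54, and Il2ra, a marker of early thymocytes, 18 against 19.

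**Figure D2:**
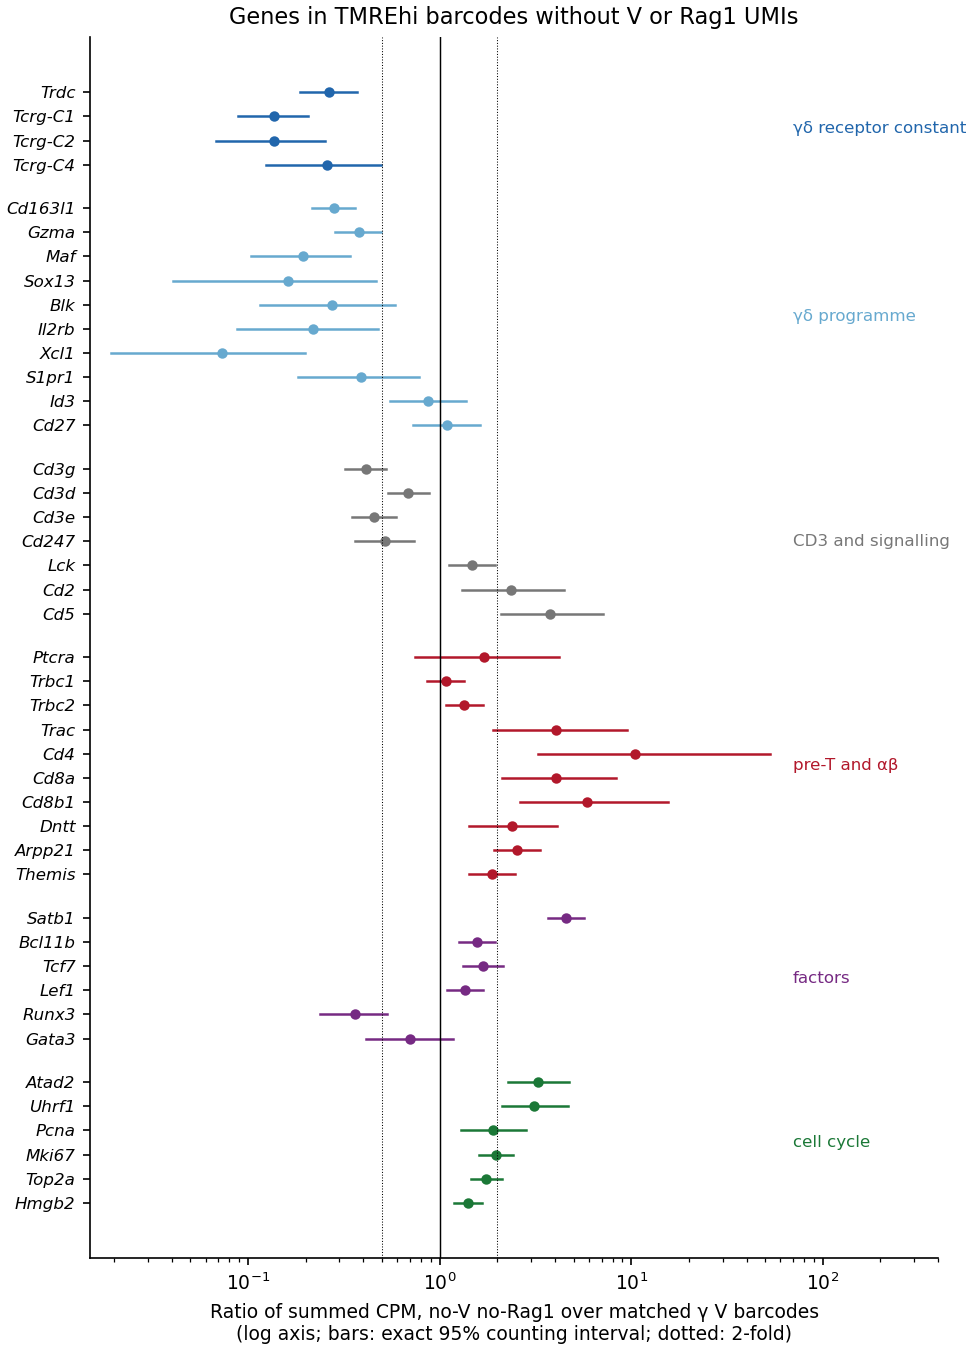
Ratio of summed CPM in the 130 TMREhi barcodes without V or Rag1 UMIs to that in the 130 depth-matched barcodes with a γ V UMI (x axis, log scale) for named genes by list (y axis), with exact 95% counting intervals. The γδ genes other than Cd27 (1.09) lie left of 1, with Xcl1 lowest, and Cd4, Cd8b1, Satb1, Trac and Cd8a lie right of 2.

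Cell cycle transcripts were more abundant. The 42 S phase genes summed to 1643 UMIs against 829, a ratio of 2.00 (1.84–2.17), with 12 of 34 measured at 50 CPM over 2-fold higher and 0 over 2-fold lower. The 51 G2/M genes summed to 2799 against 1689, a ratio of 1.67 (1.57–1.77), with 18 of 41 over 2-fold higher and 0 over 2-fold lower. Both counts stand beside the 7.22% of all genes over 2-fold higher. Mki67, a protein of dividing cells, had 297 UMIs in 57 barcodes against 152 in 28 (1251 against 636 CPM). The S phase genes Atad2 and Uhrf1 had 132 against 41 and 108 against 35. Esco2, which acetylates cohesin in S phase, had 54 against 13. The 135 barcodes with Rag1 and no V UMI, not depth-matched, stood at 5965 CPM of S phase and 16205 of G2/M genes. The barcodes without either stood at 6921 and 11791 CPM, so abundant cycling transcripts were not particular to them.

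The cycling transcripts sat in a part of the barcodes. S and G2/M genes together made up a median of 0.912% of a barcode's UMIs, with quartiles of 0.400% and 2.39% and a highest value of 5.60%, against a median of 0.430% in the comparison set. At least 2% was reached by 43 of 130 barcodes and by 15 of 130 comparison barcodes. Thinned to 1000 UMIs, Mki67 was seen in 47.8% of barcodes (37.3–58.5), 25.3% of comparison barcodes (16.7–35.5) and 31.4% of barcodes with γ V and S1pr1 UMIs. The unthinned shares were 43.8%, 21.5% and 44.4%. At or below 10% mitochondrial UMIs, where 18 barcodes stood on each side, the G2/M ratio was 0.974 and the S phase ratio 1.36, so the G2/M ratio was not above 1 in the barcodes within that limit. Those 18 include 2 deep barcodes rich in macrophage genes, described further on.

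**Figure D3:**
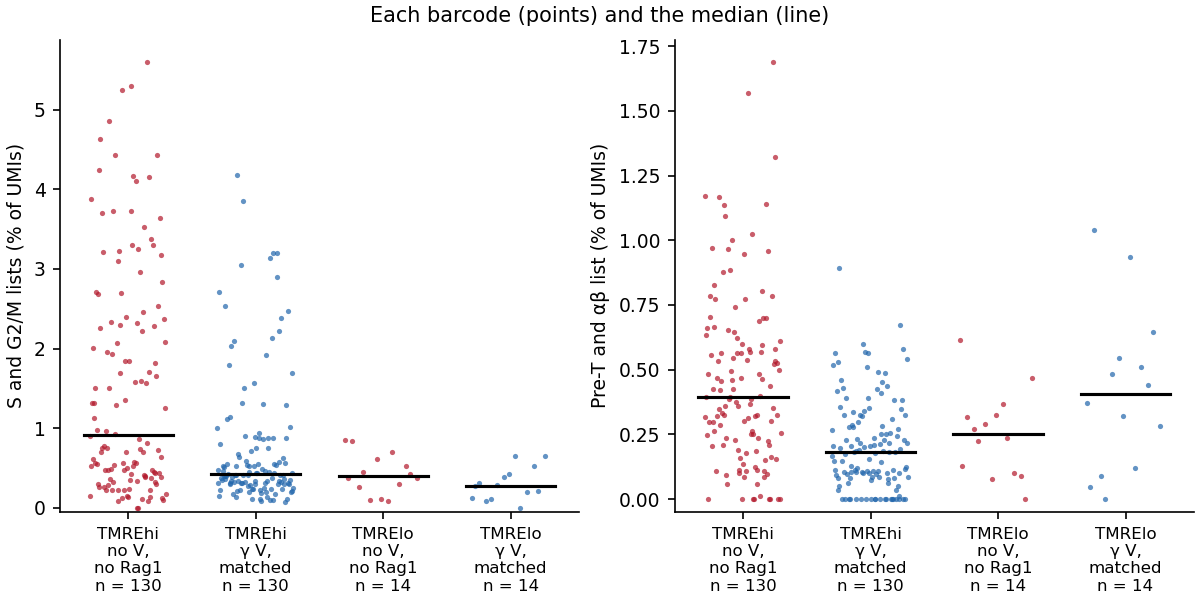
Share of each barcode's UMIs (y axes, %) from the S and G2/M lists (left) and from the pre-T and αβ list (right), with the median as a line, for both libraries and both sets. In TMREhi the medians are 0.912% against 0.430% and 0.394% against 0.183%, and in TMRElo no barcode reaches 1% of cycling transcripts.

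Energy genes differed little from the depth-matched barcodes. The 13 mitochondrially encoded mRNAs stood at a ratio of 1.06 (1.04–1.08), the 63 nuclear genes of oxidative phosphorylation at 0.959 (0.909–1.01) and the 18 glycolysis genes at 0.901 (0.817–0.994). The direction for the mitochondrial mRNAs turned, to between 0.978 and 0.987, under 3 other ways of matching or weighting. Against all 698 γ V barcodes, which were deeper, the 3 ratios were 2.22, 0.495 and 0.532. Of the stress and death list, Hspa5, a chaperone of the endoplasmic reticulum, had 142 UMIs against 330, and the nuclear RNA Malat1 stood at 2302 against 2337.

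Counting receptor transcripts per barcode divided the TMREhi barcodes. The genes Ptcra, Trac, Cd4, Cd8a, Cd8b1 and Rag2 were grouped for this, after their values were seen, and are called αβ-lineage genes although Rag2 serves both lineages. Of 130 barcodes, 63 had a UMI of these 6 genes and none of a γδ constant region, 30 had a γδ constant UMI and none of the 6 genes, 16 had both and 21 had neither. Without Rag2 the 4 counts were 62, 30, 16 and 22. The comparison barcodes divided as 5, 95, 24 and 6, and the 135 barcodes with Rag1 and no V UMI as 92, 4, 22 and 17. The classes rest on few molecules, since 25 of the 46 barcodes with a γδ constant UMI had exactly 1, as had 30 of the 79 with an αβ-lineage UMI.

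The barcodes of these classes differed in genes that had not defined them. In the 30 with γδ constant UMIs only, Cd163l1 stood at 903 CPM (670–1190) and Satb1 at 415, with 5200 CPM of S phase genes and 6518 of G2/M genes. In the 62 with αβ-lineage UMIs only, leaving out a barcode rich in macrophage genes, Cd163l1 stood at 27.6 CPM (5.69–80.7), Satb1 at 2825, and the S and G2/M genes at 9055 and 15054. The 30 had 145 UMIs of the γδ programme (2618 CPM) and the 62 had 88 (810 CPM). The 20 barcodes with neither kind of UMI, again without a barcode rich in macrophage genes, had the lowest depth, a median of 989.5 UMIs, with 3809 CPM of Satb1, 1039 of the γδ programme, 5150 of S phase and 10387 of G2/M genes. Their Satb1 and γδ programme levels lay on the side of the αβ-lineage class and their S phase level on the side of the γδ class. Cd5 was high in them, at 866 CPM (529–1337) in 6 barcodes. In TMRElo, the 10 barcodes with γδ constant UMIs only stood at 2831 CPM of Satb1 (1896–4066, 29 UMIs in 6 barcodes). A high Satb1 level was therefore not particular to αβ-lineage barcodes.

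**Figure D4:**
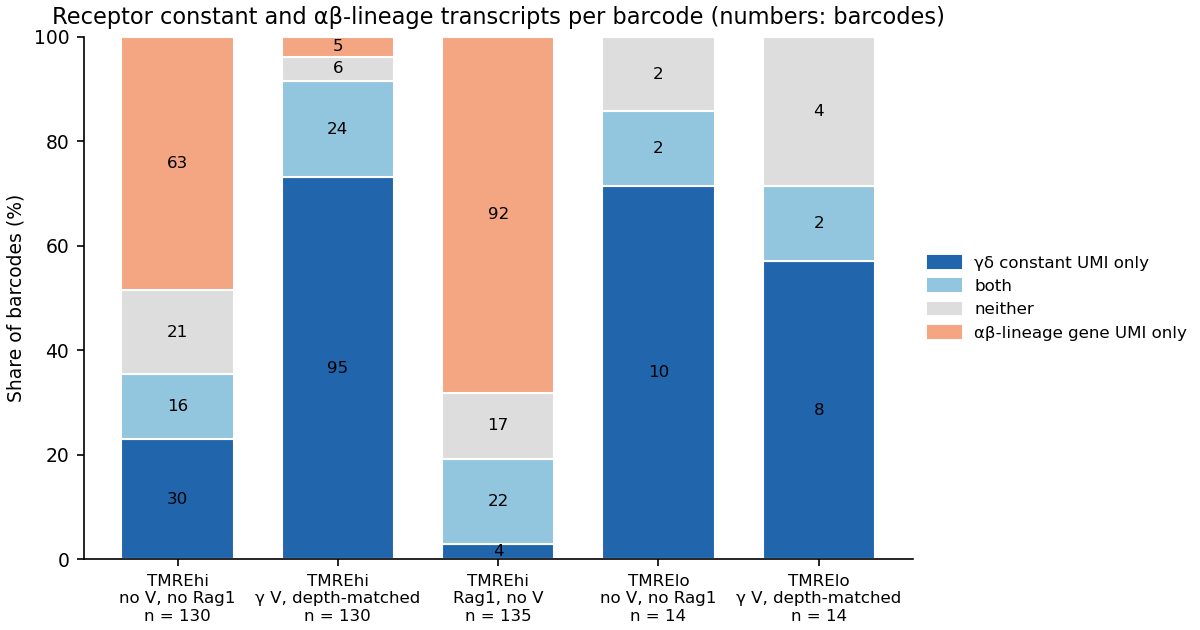
Share of barcodes (y axis, %) with UMIs of a γδ constant region only, of 6 αβ-lineage genes only, of both or of neither, for 5 sets of barcodes (x axis), with the number of barcodes written in each part. In TMREhi the set without V or Rag1 UMIs holds 63 barcodes with αβ-lineage UMIs only against 5 in the depth-matched set, and in TMRElo it holds 0.

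Barcodes just outside the rule fell on either side of the set. In TMREhi, 60 barcodes with at least 500 genes had exactly 1 V UMI and no Rag1 UMI. A γδ constant UMI was present in 54 of these 60, against 35.4% of the barcodes with no V UMI. Another 36 barcodes had exactly 1 Rag1 UMI and no V UMI, with a γδ constant UMI in 13.9% and an αβ-lineage UMI in 80.6%, against 60.8% in the set. On the gene limit, 10 barcodes lay within 50 genes above it, of which 3 had a γδ constant and 6 an αβ-lineage UMI, and 19 lay within 50 genes below it, of which 6 and 9 had one.

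Grouping all barcodes of both libraries by expression, with V symbols and Rag1 left out, gave 14 Leiden clusters, and 108 of the 130 TMREhi barcodes lay in 5 of them. Clusters are given by number and leading genes, carry no cell type name, and their leading genes are no result. Cluster 3 held 35 of the 130 (26.9%), and these were 35 of its 48 TMREhi barcodes (72.9%, 58.2–84.7). Its leading genes included Hivep3, Nr4a1, Bach2, Bcl2l11, Nab2 and Cd5. Nr4a1 and Nab2 are genes that receptor signals induce quickly, and Bcl2l11 encodes BIM, a protein that kills thymocytes with self-reactive receptors. In the 35 barcodes, Cd5 had 36 UMIs in 18 (835 CPM), Trac 21 in 14, Cd4 14 in 10, and γδ constant regions 12 in 5, while Ptcra had 1 UMI and Rag2 and Dntt had 0. The other 13 TMREhi barcodes of this cluster had a γ V UMI, and 12 of those had a γδ constant UMI, 0 a Cd4 UMI and 0 a Trac UMI. Cluster 3 therefore joined barcodes with γδ and with αβ receptor transcripts. A Rag1 UMI was present in 1 of its 48 TMREhi barcodes (2.08%), against 58.4% in cluster 12 and 86.9% in cluster 13. The rule fixed 0 Rag1 UMIs in barcodes of the set, which were 72.9% of TMREhi barcodes in cluster 3, 23.8% in cluster 12 and 12.1% in cluster 13. The low share was thus largely set by the rule and supports nothing. At resolution 2, 50 of the 53 barcodes of cluster 3 in both libraries stayed together, and at 0.5, 52 of 53 did within a cluster of 260.

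Clusters 12 and 2 held 24 barcodes each and were the cycling part. Cluster 12 was led by E2f2, Bub1b, Prc1, Aspm, Mki67 and Ptcra, and its 24 barcodes had 27479 CPM of G2/M and 10495 of S phase genes, with Mki67 in all 24. They had 61 αβ-lineage UMIs in 22 barcodes, mostly Cd8a (23) and Cd8b1 (19), and 9 of Ptcra, against 8 γδ constant UMIs in 5. Cluster 2 was led by Notch1, Dtl and Cdc6, with 11054 CPM of S phase genes, and 13 of its 24 barcodes had a γδ constant UMI while 16 had an αβ-lineage one. Cd5 had 0 UMIs in cluster 2 and 6 in cluster 12. Cluster 13, led by Cd4, Cd8b1 and Satb1, held 12 barcodes, with 0 γδ constant UMIs, 24 αβ-lineage UMIs in 10 barcodes and a median of 779.5 UMIs. Cluster 6, led by S1pr1, the receptor used to leave the thymus, held 13, of which 6 had γδ constant UMIs (1007 CPM) and 3 an αβ-lineage UMI, with Cd8b1 as the only gene of the 6 detected.

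**Figure D5:**
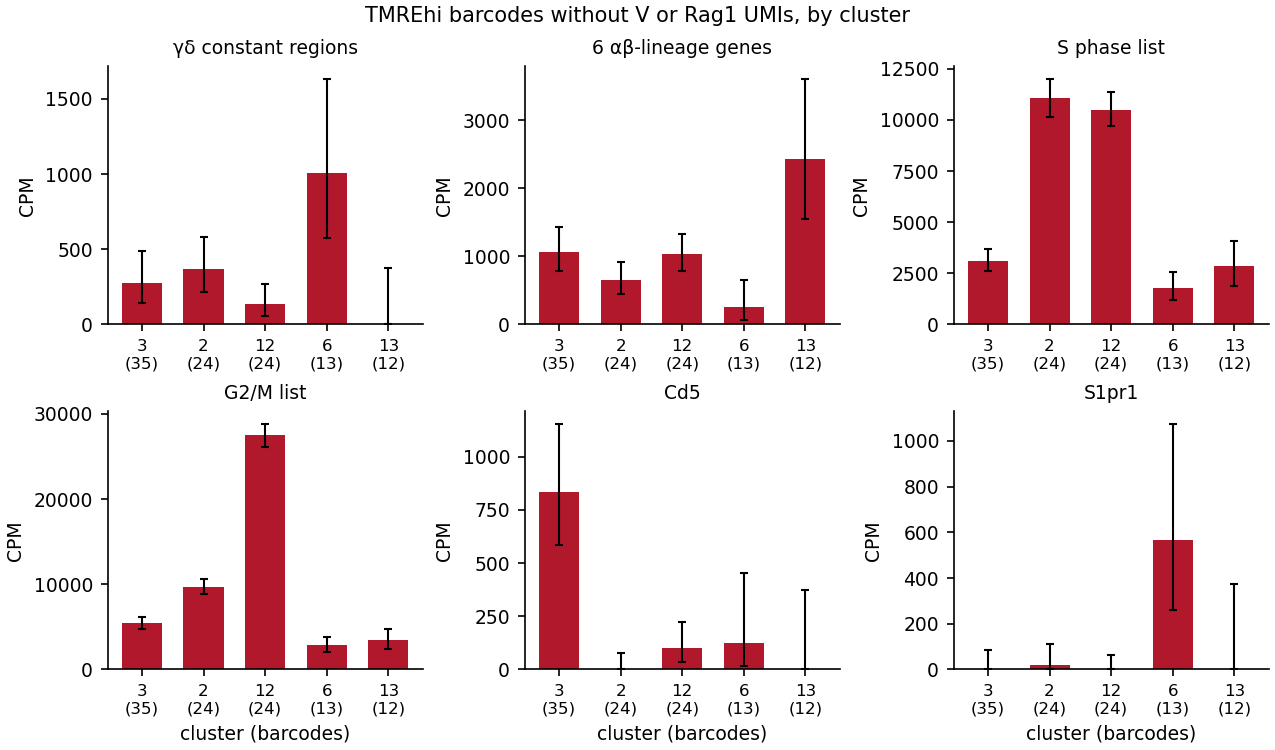
CPM (y axes) of 6 quantities in the TMREhi barcodes without V or Rag1 UMIs, summed within each of 5 clusters (x axes, number of barcodes in brackets), with exact 95% Poisson intervals. Cd5 is highest in cluster 3 (835 CPM), G2/M genes in cluster 12 (27479) and γδ constant regions in cluster 6 (1007).

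Macrophage genes came from 2 TMREhi barcodes. The list summed to 734 UMIs against 25 in the comparison set, a ratio of 29.6, and 716 of these, 97.5%, lay in a barcode of 7594 UMIs with 475 macrophage UMIs and in a barcode of 9291 UMIs with 241. Lyz2, at chr10:117277331-117282321, had 128 and 28 UMIs in them, Apoe 120 and 42, and C1qb 70 and 43, and each detected 14 of the 15 macrophage genes. Both had 0 UMIs of Cd3d, Cd3e and Cd3g and 0 of γδ constant regions, and together they gave 7.11% of the set's UMIs. The other 128 barcodes had 18 macrophage UMIs, 1 of them Lyz2, at 81.6 CPM, against 104.5 CPM in the comparison set. A Lyz2 UMI was present in 3 of 130 barcodes (2.31%, 0.478–6.60) and in 5 of the 698 γ V barcodes (0.716%, 0.233–1.66), which should lack it and had a median of 2556.5 UMIs. Those 5 include a barcode with 228 macrophage UMIs, 43 of them Lyz2, and another with 25, 2 of them Lyz2. Thinned to 1000 UMIs the shares were 2.17% and 0.305%.

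Another 4 TMREhi barcodes with at least 10 macrophage UMIs fell outside the set because they held between 1 and 4 V or Rag1 UMIs. They had 228, 161, 35 and 25 macrophage UMIs. The genes with the highest ratios in the set, Lyz2, C1qb, C1qc, C1qa and Apoe, thus described 2 barcodes, and Cxcl10, an interferon-induced chemokine gene with 71 UMIs, described 1. Without the 2 barcodes the macrophage ratio was 0.726, the S phase ratio 2.20 and the G2/M ratio 1.98. Dendritic cell genes had 1 UMI in the set, mast cell Cpa3 5 against 33, Cd79b 5 against 8, NK and ILC genes 4 against 6 and erythroid genes 0 against 0. Thymic epithelial genes had 18 against 21, mesenchymal genes 1 against 7 and the endothelial list, all of it Pecam1, 31 against 28.

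The 14 TMRElo barcodes looked different. A γδ constant UMI was present in 12 of 14 (85.7%, 57.2–98.2), and 10 of 14 comparison barcodes had one (71.4%, 41.9–91.6). The constant regions summed to 26 UMIs against 18, a ratio of 1.41 (0.745–2.74), and Trdc had 12 UMIs in 7 barcodes against 3 in 3. Ptcra, Cd4, Dntt, Cd5, Mki67 and Lyz2 were at 0 UMIs in the 14, and a count of 0 at this depth allows up to 168 CPM (3 counts). Only 2 of the 14 had an αβ-lineage UMI, as had 2 of the comparison barcodes, and no TMRElo barcode with at least 500 genes had Rag1 without a V UMI. The pre-T and αβ list stood at 39 UMIs against 61, a ratio of 0.625 (0.407–0.950), with Trbc1 at 11 against 30 and Themis at 10 against 15. Without Trbc1 the list stood at 28 against 31, a ratio of 0.883 (0.511–1.52), so most of the gap was that gene. Satb1 was higher here as in TMREhi, with 34 UMIs against 16, a ratio of 2.08 (1.12–4.03). S and G2/M genes made up a median of 0.404% of UMIs, against 0.281%, and the highest barcode had 0.859%. In clusters, 9 of the 14 lay in cluster 6, led by S1pr1, where 77 of the 106 TMRElo γ V barcodes also lay.

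The γδ programme list stood at 119 UMIs against 39 in TMRElo, and 85 of the 119 were in the deepest barcode, of 4770 UMIs. This barcode had 78 Xcl1 UMIs, and among genes named after their values were seen, 64 of Gzmb, which encodes granzyme B, 12 of Nkg7, a cytotoxic granule gene, and 7 of Eomes, a factor of cytotoxic lymphocytes, with 2 Trdc and 1 Tcrg-C1 UMIs. Ncr1, Klrb1c and Klre1 of the NK and ILC list were at 0 in it. That list stood at 10 UMIs against 0 over the 14, with 7 in this barcode, and its part in the result was not tested. Without it and its comparison barcode the list stood at 34 against 36 UMIs, a ratio of 0.943 (0.572–1.55), and Trdc stood at 10 against 3, a ratio of 3.33 (0.857–18.8) whose interval includes 1. Among barcodes of TMRElo with exactly 1 V UMI, 88.9% of 27 had a γδ constant UMI, close to the 85.7% of those with none.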

How the data were processed

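The authors deposited 1 matrix of unnormalized UMI counts for each library. Cell Ranger 3.0.2 wrote them, per the file headers, while version 3.0 and build mm10 stand in the submitters' processing notes. The sources used here do not give aligner settings. These matrices hold 1202 TMREhi barcodes with 4350485 UMIs and 196 TMRElo barcodes with 245048.

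Membership was computed from symbols, with no limit on mitochondrial UMIs. Comparison barcodes were the nearest in total UMIs with a γ V UMI, 1 per member, without replacement. Intervals are exact Poisson for sums, exact binomial (Clopper-Pearson) for shares and ratios, at 95%, and cover counting error only. Log2 ratios for the 2-fold rule add 1 CPM, over genes averaging 50 CPM or more, leaving out V symbols and Rag1. Clusters used 2000 variable genes, 20 components, 15 neighbours, Leiden resolution 1 and seed 1. Doublets were called with Scrublet (6 of 1025 and 2 of 133) and kept. Shares across depths used barcodes thinned to 1000 UMIs, leaving out 38 members, 39 comparison barcodes, 69 with Rag1 and no V UMI, and 5 with γ V and S1pr1 UMIs in TMREhi.

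Named genes were the 5 markers, up to 4 genes of each of 22 lists with the highest level (20 CPM or more, and defining macrophage genes at any level), and the 10 highest and 10 lowest ratios at 100 CPM or more. Other list members and cluster genes, the 6 αβ-lineage genes, and the limit of 10 macrophage UMIs were chosen after their values were seen. Alternatives covered matching, weighting, gene and mitochondrial limits, thinning, CPM minimum and pseudocount. The members and lists were chosen with earlier results of these data known. Gene positions come from GENCODE vM21 (GRCm38), which holds 31011 of the 31053 identifiers. Ratios and intervals were tested on simulated Poisson counts, which is what the intervals assume, and matching and thinning on the TMREhi barcodes themselves. Clusters and doublets came from scanpy 1.11.5, intervals from scipy 1.17.1 and figures from matplotlib 3.10.9, under Python 3.11.15 with pandas 2.3.3 and numpy 2.4.6.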

Additional observations from a re-analysis of the deposited data

Results flagged for a closer look

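Ratios of 3 quantities lay on opposite sides of 1 in the 2 libraries, each the value in barcodes without V or Rag1 UMIs over that in depth-matched γ V barcodes. The γδ programme list stood at 0.355 in TMREhi and 2.98 in TMRElo, the latter being 0.943 without the deepest TMRElo barcode. The pre-T and αβ list stood at 1.80 in TMREhi and 0.625 in TMRElo, the latter being 0.883 (0.511–1.52) without Trbc1. Trdc stood at 0.265 in TMREhi and 3.91 (1.06–21.6, on 12 against 3 UMIs) in TMRElo, the latter being 3.33 (0.857–18.8) without the deepest TMRElo barcode. The difference between the libraries was not tested, since each was sequenced once.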

How the results depend on the processing

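The share of TMREhi barcodes without V or Rag1 UMIs (12.7%) was 15.6% with a limit of 300 genes, 8.21% with 1000, 5.68% at or below 10% mitochondrial UMIs, 10.0% when Trav-dv UMIs also counted against a barcode, 25.9% without the Rag1 condition and 25.3% when the rule was applied to barcodes thinned to 1000 UMIs. In TMRElo it was 3.57% with 1000 genes. Genes over 2-fold higher and lower (295 and 249) numbered 1004 and 394 against all γ V barcodes, 693 and 494 at or below 10% mitochondrial UMIs, 705 and 632 from 20 CPM, and 2204 and 2037 with no minimum, and 410 were lower without mitochondrial and ribosomal genes in the total. At or below 10% mitochondrial UMIs, on 18 barcodes, the ratios were 0.0922 for γδ constant regions, 1.30 for the pre-T and αβ list, 1.36 for S phase, 0.974 for G2/M and 743 for macrophage genes (1 comparison UMI). Against all γ V barcodes they were 0.277 for constant regions, 1.68 for S phase, 1.18 for G2/M, 2.22 for mitochondrial mRNAs, 0.495 for oxidative phosphorylation and 0.532 for glycolysis. The pre-T and αβ ratio without Trbc1, chosen after seeing the data, was 2.12. Weighting barcodes equally gave 2.18 for the pre-T and αβ list, 1.95 for G2/M and 5.20 for macrophage genes. With 1000 genes the pre-T and αβ ratio was 1.55 and the macrophage ratio 90.8. Matching on non-mitochondrial UMIs gave 2.28 for S phase, 1.92 for G2/M and 15.4 for macrophage genes, and matching within ribosomal class 1.82 and 1.54 for S phase and G2/M. With comparison barcodes of 0 Rag1 UMIs these were 2.33 and 1.92. Without the 5 deepest barcodes, S phase stood at 2.22, G2/M at 2.05 and macrophage genes at 0.757, and without the 2 macrophage-gene barcodes, an alternative chosen after seeing the data, at 2.20, 1.98 and 0.726, as the second leaves out the source of those UMIs. The mitochondrial mRNA ratio turned to 0.978 (matched on non-mitochondrial UMIs), 0.987 (ribosomal class) and 0.987 (equal weights), and the TMRElo γδ programme ratio to 0.943 without the deepest barcode. Thinned to 500 UMIs, Trdc was seen in 6.92% (3.21–12.7) of the 130 TMREhi barcodes without V or Rag1 UMIs and in 30.8% of comparison barcodes. In barcodes with Rag1 and no V UMI it was seen in 4.44% (1.65–9.42), an interval that overlaps the first. The cause of the other changes was not tested. Of the alternatives run on main results, 74 stayed within their limits, 41 moved beyond them and 3 changed direction. On the other results 53 stayed, 28 moved and 4 changed direction, and not all of these are printed here. No paired analysis was possible because each group is 1 library. TMRElo values rest on 14 barcodes and 17842 UMIs.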
